A study of Homo sapiens with 100 samples.

Results

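Venetoclax was added to zelebrudomide for 24 h in 5 wild-type TMD8 clones, and the poly(A) RNA of these cultures was compared with that of the same 5 clones under zelebrudomide without venetoclax. The 10 libraries, of 100 in the series, were chosen by their labels (wild-type clones 1 to 5 under each of the 2 conditions) and paired by clone number. TMD8 is an established human line of diffuse large B cell lymphoma, and belongs to its activated B cell (ABC) subtype. Each clone was grown from a single cell and gave 1 library per condition, so the spread between clones is the spread within 1 cell line. The series also exposed 6 clones with an A428D change to the same drugs. The growth text places that change in the endogenous BTK locus, whereas the titles of those samples name SF3B1. For comparison, 3 other pairs of groups were read in the same way: venetoclax against the solvent DMSO in the 5 wild-type clones, zelebrudomide plus venetoclax against zelebrudomide in the 6 A428D clones, and bexobrutideg plus venetoclax against bexobrutideg in the 5 wild-type clones. All cultures were exposed for 24 h in the same medium, and the doses are not given in the sources used here.

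Venetoclax occupies the groove of BCL2 that otherwise holds BH3-only proteins, and the BH3-only proteins that are released can activate BAX and BAK, which permeabilise the outer mitochondrial membrane. Zelebrudomide is a degrader that joins BTK to the cereblon ubiquitin ligase and also directs that ligase to the transcription factors IKZF1 and IKZF3, while bexobrutideg is a degrader of BTK. In ABC lymphomas BTK carries signals from the B cell receptor to NF-kB, and IRF4 and MYC lie downstream. Entry into S phase is governed by E2F transcription factors, cholesterol synthesis by SREBP2, glycolytic and oxygen-responsive genes by HIF1, and endoplasmic reticulum chaperones by ATF6 and XBP1.

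The libraries with both drugs were shallower than those with zelebrudomide alone in 4 of the 5 clones. Clones 1 to 5 had 6.12, 3.66, 3.15, 5.53 and 4.13 M counted reads with zelebrudomide plus venetoclax, against 6.05, 6.07, 6.55, 7.82 and 6.01 M with zelebrudomide. Depth was lower in 4 of the 5 pairs (mean log2 ratio -0.56 ± 0.39 SD; exact two-sided sign-flip permutation p = 0.125, where the smallest p that 5 pairs allow is 0.0625). Mitochondrial transcripts took 9.41% to 10.3% of the reads with both drugs and 8.73% to 10.5% with zelebrudomide, and were higher with both drugs in 4 of 5 pairs (exact two-sided sign-flip permutation p = 0.125). Of the other groups, the bexobrutideg plus venetoclax libraries were the most uneven, at 1.48 to 6.11 M reads. B cell markers were present in every library, with MS4A1 (CD20) at 824 to 1109 CPM (counts-per-million of unscaled totals) with both drugs and 974 to 1068 CPM with zelebrudomide. The 10 markers of T and NK cells summed to 0.362 to 1.905 CPM with both drugs and 0.496 to 1.978 CPM with zelebrudomide, with GNLY and KLRD1 at 0 throughout. Of 9 myeloid markers, only CD68 passed the filter on low counts, at 23.1 to 32.8 CPM with both drugs and 22.6 to 34.0 CPM with zelebrudomide. Of 10 fibroblast and endothelial markers 3 passed it, and the list summed to 13.3 to 18.9 CPM with both drugs and 18.4 to 25.6 CPM with zelebrudomide. Their part in the results was not tested.

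Addition of venetoclax changed the level of 3473 of 14962 genes tested (23.2%; edgeR quasi-likelihood test, Benjamini-Hochberg adjusted p under 0.05). Of these, 1852 genes were higher with both drugs (12.4% of genes tested) and 1621 were lower (10.8%). Counts of list members that rose or fell, given below, stand against these 2 shares. Changes of at least 2-fold were fewer, with 128 genes higher (0.856%) and 281 lower (1.88%). For 1096 genes the 5 values with both drugs lay wholly above the 5 with zelebrudomide (7.33%), and for 835 they lay wholly below (5.58%). The fit paired libraries by clone over 88 libraries. Without the pairing by clone it called 1867 genes, of which 1865 were among the 3473. In an unpaired fit of the 10 libraries compared, 2788 of 12671 genes passed. Results given below as not paired are from all 88 libraries, A428D clones included, unless the 10 libraries are named. With each pair thinned to equal depth, 3550 of 11717 genes passed. The median log2 fold change over all genes tested was -0.01.

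The 12 genes with the largest rises, among genes that moved the same way in all 5 clones and averaged at least 5 CPM in the higher group, were E2F8, MCM10, GINS2, WDR76, POLE2, ZNF367, EXO1, RRM2, CDC45, CDC25A, DSCC1 and SPC25. E2F8, a repressor of the E2F family at chr11:19224063-19241620 on the minus strand (GRCh38), had 5.39, 13.6, 16.3, 10.1 and 14.7 CPM in clones 1 to 5 with zelebrudomide plus venetoclax, against 2.82, 1.99, 3.66, 2.47 and 2.13 CPM with zelebrudomide. Every clone was higher with both drugs, clone 1 by the least, and the groups did not overlap (log2 fold change 2.13 ± 0.25 SE, edgeR adjusted p = 5.3e-10). From here on CPM are on totals scaled by TMM. The 12 largest falls were those of NDUFA4L2, IZUMO4, SERPINF2, TSC22D3, ALDOC, NXPH4, AVIL, SLC16A3, ATF5, NDRG1, NRN1 and ABCA9. NDUFA4L2, a mitochondrial protein induced by HIF1 (chr12:57234903-57240715, minus strand), had 5.06, 2.83, 1.96, 3.87 and 1.83 CPM with both drugs, against 35.8, 29.6, 21.1, 45.5 and 35.9 CPM with zelebrudomide. The groups lay far apart in all clones (log2 fold change -3.36 ± 0.21 SE, edgeR adjusted p = 3.5e-21). Because the strand setting of the counting is not given, reads of NDUFA4L2 cannot be told from those of SHMT2, which overlaps it on the other strand. The same holds among these genes for GINS2 with GSE1, IZUMO4 with MOB3A, AVIL with TSFM, SLC16A3 with CSNK1D and ATF5 with IL4I1, NUP62 and MIR4751. Of the genes named further on it holds for CDK4 with TSPAN31, HSPE1 with HSPD1, CRELD2 with ALG12, CA9 with ARHGEF39, TP53INP1 with NDUFAF6, BCL2L11 with MIR4435-2HG, CXCR5 with BCL9L, DERL3 with SMARCB1, CHEK1 with STT3A and SSPN with BHLHE41.

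All 30 genes of a list of replication and S phase factors rose when venetoclax was added, against 12.4% of all genes tested. Their log2 fold changes ran from 0.41 (MCM5) to 1.84 (CCNE2), with a median of 1.04 against -0.01 for all genes. In 25 of the 30 the 5 values with both drugs lay wholly above the 5 with zelebrudomide (7.33% of all genes tested). Summed over the list, the level was 847 to 1445 CPM of unscaled totals with both drugs and 561 to 691 CPM with zelebrudomide. MCM10, which helps to activate the replicative helicase (chr10:13161554-13211104, plus strand), had 20.1, 30.6, 30.4, 30.2 and 24.6 CPM in clones 1 to 5 with both drugs, against 7.13, 10.9, 8.58, 5.33 and 10.7 CPM with zelebrudomide. The lowest value with both drugs was above the highest with zelebrudomide (log2 fold change 1.70 ± 0.19 SE, edgeR adjusted p = 1.7e-10). CDC45, a core subunit of that helicase, had 15.7, 30.0, 32.6, 24.6 and 29.1 CPM with both drugs, against 9.12, 9.44, 8.74, 8.97 and 9.78 CPM with zelebrudomide. GINS2, a subunit of its GINS part, had 7.92, 17.5, 23.2, 13.8 and 17.6 CPM with both drugs, against 4.31, 5.13, 4.45, 5.46 and 4.44 CPM with zelebrudomide. RRM2, the small subunit of ribonucleotide reductase, had 25.3, 37.9, 49.6, 39.7 and 40.1 CPM with both drugs, against 10.6, 14.9, 16.2, 12.5 and 13.3 CPM with zelebrudomide. None of these 3 overlapped between the groups, and clone 1 was the lowest of the 5 with both drugs for each of them (log2 fold changes 1.49 ± 0.20, 1.68 ± 0.22 and 1.51 ± 0.18 SE; edgeR adjusted p = 1.6e-08, 1.5e-08 and 4.8e-10). The other members included PCNA, the sliding clamp (mean 271 CPM with both drugs against 117 CPM with zelebrudomide, log2 fold change 1.20 ± 0.14 SE), TYMS, which makes thymidylate (82.8 against 34.6 CPM, 1.25 ± 0.12 SE), and E2F1 (16.7 against 6.61 CPM, 1.33 ± 0.19 SE). In bulk RNA, more cells in S phase and more RNA of these genes per cell cannot be told apart. Without the pairing by clone 25 of the 30 passed.

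**Figure D1:**
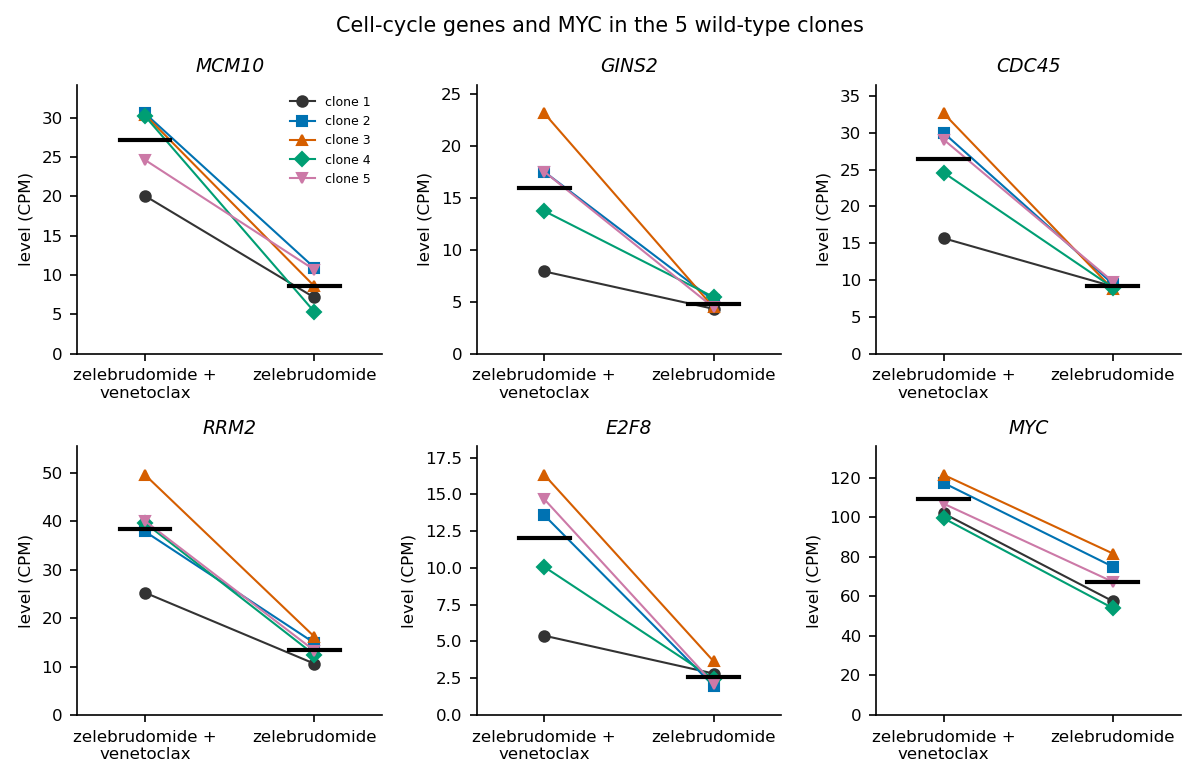
Levels of MCM10, GINS2, CDC45, RRM2, E2F8 and MYC in CPM (TMM-scaled), with zelebrudomide plus venetoclax on the left and zelebrudomide on the right of each panel; each point is 1 library, each line joins the libraries of 1 clone and each bar is a group mean. All 5 lines of every panel fall toward the zelebrudomide side, and the 2 sets of points do not overlap, as for MCM10 at 20.1 to 30.6 against 5.33 to 10.9 CPM.

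The promoters of these genes often held the E2F motif. Over the 250 bases upstream of the RefSeq start (GRCh38.p14), TTTCCCGC or TTTGGCGC on either strand was present in 11 of the 25 list members with a promoter in the table (44.0%), in 1.96% of all 27305 promoters, in 3.21% of those of genes tested, in 5.54% of those of genes that rose and in 2.04% of those of genes that fell. The motif was chosen after the changes were known, and a match is a description of letters, not of binding. The holders were GINS2, MCM6, E2F1, TYMS, PCNA, UHRF1, MCM3, MCM7, POLA1, CDT1 and POLE. The 4 holders with the largest rises are printed because they carry the clearest increase in the data. They lie at chr16:85688955-85689204 (GINS2, minus strand), chr2:135876444-135876693 (MCM6, minus), chr20:33686386-33686635 (E2F1, minus) and chr18:657403-657652 (TYMS, plus), and are given 5′ to 3′ on the strand of the gene with the motif in capitals.
GINS2: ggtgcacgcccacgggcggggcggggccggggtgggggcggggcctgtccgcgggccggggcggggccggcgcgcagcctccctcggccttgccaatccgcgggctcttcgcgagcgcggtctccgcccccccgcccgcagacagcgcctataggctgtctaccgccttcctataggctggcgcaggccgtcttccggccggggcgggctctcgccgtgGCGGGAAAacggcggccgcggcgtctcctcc
MCM6: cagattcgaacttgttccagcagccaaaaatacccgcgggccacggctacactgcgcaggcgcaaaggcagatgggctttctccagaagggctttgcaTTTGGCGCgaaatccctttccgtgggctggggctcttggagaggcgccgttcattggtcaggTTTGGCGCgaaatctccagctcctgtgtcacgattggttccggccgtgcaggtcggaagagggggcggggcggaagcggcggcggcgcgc
E2F1: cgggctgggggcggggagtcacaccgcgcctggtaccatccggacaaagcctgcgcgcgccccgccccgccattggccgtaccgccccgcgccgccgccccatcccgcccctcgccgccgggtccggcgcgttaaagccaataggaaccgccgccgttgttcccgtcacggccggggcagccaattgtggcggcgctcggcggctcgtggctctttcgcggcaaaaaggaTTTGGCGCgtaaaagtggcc
TYMS: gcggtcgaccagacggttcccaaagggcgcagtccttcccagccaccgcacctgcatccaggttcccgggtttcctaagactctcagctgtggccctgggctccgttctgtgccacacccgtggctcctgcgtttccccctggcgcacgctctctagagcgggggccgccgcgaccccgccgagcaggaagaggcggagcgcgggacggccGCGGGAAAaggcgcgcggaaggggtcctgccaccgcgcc
The motif began 31 bases upstream of the start in GINS2, 20 bases upstream in E2F1 and 39 bases upstream in TYMS. MCM6, a subunit of the MCM helicase, held it at 152 and at 90 bases upstream. MCM6 averaged 43.2 CPM with both drugs and 16.5 CPM with zelebrudomide (log2 fold change 1.38 ± 0.14 SE).

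Of 28 mitosis genes 3 rose, a share near the 12.4% of all genes tested that rose, and none fell, with a median log2 fold change of 0.17. The 3 were CDK1, AURKB and CCNA2, and none passed when clones were not paired over all 88 libraries. In an unpaired fit of the 10 libraries compared, CCNA2 passed and CDK1 and AURKB did not. CDK1, the mitotic kinase, had 28.8, 58.9, 61.1, 44.3 and 49.5 CPM with both drugs, against 28.5, 37.6, 37.7, 31.2 and 32 CPM with zelebrudomide. Clone 1 hardly differed, and the groups overlapped (log2 fold change 0.51 ± 0.14 SE, edgeR adjusted p = 0.005). Without clone 1 the count was 8 of 28, and without the pairing by clone it was 0. Among 12 G1 regulators 4 rose and 1 fell. CDK4, the G1 kinase, had 56.0, 76.7, 88.2, 63.1 and 63.4 CPM with both drugs, against 39.97, 43.4, 45.8, 40.8 and 42.3 CPM with zelebrudomide, with no overlap. CDKN1A (p21), an inhibitor of cyclin-dependent kinases, was the member that fell, at 52.1, 46.4, 43.8, 44.7 and 44.8 CPM with both drugs against 80.6, 61.3, 69.5, 70.0 and 67.4 CPM with zelebrudomide, also with no overlap (log2 fold change -0.59 ± 0.10 SE, edgeR adjusted p = 1.1e-06). Of 16 histone genes 4 rose and 3 fell, against 12.4% and 10.8% of all genes tested. H4C3, which encodes histone H4 at replication, rose by 1.07 on the log2 scale, and H2BC5, whose transcripts can be polyadenylated, fell by 0.91. Histone genes of near-identical sequence can share reads, so these values are uncertain. The libraries were also made from poly(A) RNA, so the values cover histone transcripts with a poly(A) tail and not all histone RNA.

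MYC and genes of ribosome production rose as well. MYC, the transcription factor that drives growth (chr8:127735434-127741434, plus strand), had 102, 117, 122, 99.5 and 107 CPM in clones 1 to 5 with both drugs, against 57.6, 75.0, 81.7, 54.1 and 67.4 CPM with zelebrudomide. The groups did not overlap and all 5 clones were higher with both drugs (log2 fold change 0.72 ± 0.14 SE, edgeR adjusted p = 2.9e-05). Of 25 MYC targets of ribosome biogenesis 22 rose and none fell, with a median of 0.47, and in 16 the groups did not overlap. MYBBP1A (log2 fold change 0.81), RRP12 (0.75) and BOP1 (0.72), all of the nucleolus, rose the most within the list. The 3 that did not pass were FBL (0.02), NPM1 (0.13) and POLR1B (0.24). The ribosomal proteins themselves showed little change, with 3 of 36 higher, none lower and a median of -0.06.

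Chaperones of the cytosol and of mitochondria, respiratory chain subunits and proteasome subunits rose with them. Of 18 heat shock chaperones 10 rose and none fell (median 0.39). HSPA8, the constitutive cytosolic HSP70, had 131, 186, 213, 180 and 177 CPM with both drugs, against 76.1, 93.8, 105, 90.3 and 102 CPM with zelebrudomide. Its groups did not overlap (log2 fold change 0.92 ± 0.10 SE, edgeR adjusted p = 4.7e-11). HSPE1, the mitochondrial HSP10, rose by 0.84 on the log2 scale and HSPD1, its HSP60 partner, by 0.41. The stress-inducible members did not pass the test, with HSPA1A at -0.40, HSPB1 at -0.43, BAG3 at -0.54 and DNAJB1 at 0.28. HSPA1A and its near-identical copy HSPA1B (0.02) can share reads. The motif GAANNTTC, the core of the heat shock element, was present in the promoters of 6 of 18 heat shock genes (33.3%), against 5.85% of all promoters. Among nuclear genes for the respiratory chain 16 of 26 rose and none fell (median 0.26), against 9 when clones were not paired and 9 without clone 4, led by ATP5MC1 of ATP synthase (0.80) and NDUFA4 of complex IV (0.58). CYCS, cytochrome c, which carries electrons in the chain and forms the apoptosome with APAF1 once released, had 167, 216, 229, 197 and 192 CPM with both drugs, against 100, 114, 135, 89.7 and 121 CPM with zelebrudomide. It was higher in all clones without overlap (log2 fold change 0.85 ± 0.09 SE, edgeR adjusted p = 3.2e-11). Of 13 transcripts encoded in mitochondria 2 rose, MT-ND5 and MT-CO1, both by 0.30 on the log2 scale. Neither passed without the pairing by clone over all 88 libraries (edgeR adjusted p = 0.271 and 0.171), and both passed in an unpaired fit of the 10 libraries compared. The call of MT-CO1 was also lost without clone 5 (edgeR adjusted p = 0.0662), and the mitochondrial share of reads given above moved the same way. Proteasome subunits rose in 12 of 24 cases with none lower (median 0.17), led by PSMA7 (0.47).

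**Figure D2:**
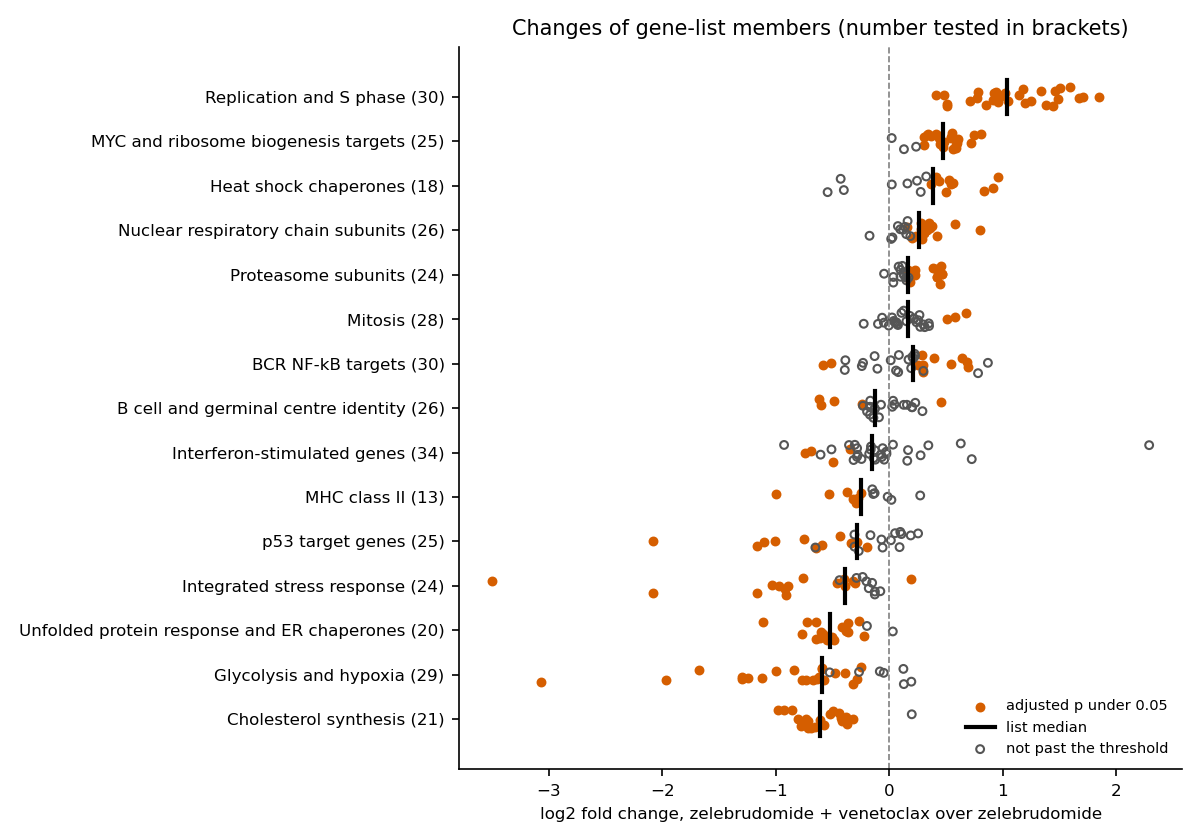
Log2 fold change of zelebrudomide plus venetoclax over zelebrudomide for the tested members of 15 gene lists; each point is 1 gene (filled where it passed the test) and each bar the median of its list. BACH2, at 0 CPM in all libraries with both drugs, is not drawn. All 30 replication genes lie above 0 (median 1.04), while the medians of cholesterol synthesis (-0.61), glycolysis and hypoxia (-0.59) and endoplasmic reticulum chaperones (-0.52) lie below it.

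Genes of glycolysis and of the response to low oxygen fell. Of 29 members 22 fell, against 10.8% of all genes tested, and none rose (median -0.59), and in 18 the values with both drugs lay wholly below those with zelebrudomide (5.58% of all genes). ALDOC, an aldolase, had 21.1, 22.1, 19.9, 26.9 and 18.1 CPM with both drugs, against 70.5, 79.5, 88.05, 102 and 89.2 CPM with zelebrudomide. The groups were far apart (log2 fold change -1.97 ± 0.17 SE, edgeR adjusted p = 3.8e-14). CA9, a carbonic anhydrase that responds strongly to HIF1, had 0.337, 0, 0.653, 0.968 and 0.524 CPM with both drugs, against 2.49, 4.47, 1.59, 8.71 and 3.73 CPM with zelebrudomide. It was low in every library with both drugs, where few reads lie behind each value. NDRG1 had 2.36, 4.25, 1.31, 3.87 and 3.14 CPM with both drugs, against 8.29, 7.12, 5.72, 17.4 and 7.82 CPM with zelebrudomide. Clone 4 was the highest under zelebrudomide, and the groups did not overlap (log2 fold change -1.67 ± 0.23 SE, edgeR adjusted p = 2e-08). The mitophagy receptors BNIP3L (-1.24) and BNIP3 (-0.64) fell too, as did PDK1 (-0.99) and VEGFA (-0.77). Among enzymes of glycolysis ALDOA (-0.74), PGK1 (-0.67), GPI (-0.62), ENO1 (-0.57), PKM (-0.47), GAPDH (-0.32), PGAM1 (-0.28) and LDHA (-0.25) fell. The hexokinases HK1 (0.13) and HK2 (0.20) and the glucose carrier SLC2A1 (-0.08) did not pass the test. Without the pairing by clone 14 of the 29 fell. The motif ACGTGC, the core of the hypoxia response element, was in 8 of 25 promoters of the list (32%) and in 5.85% of all promoters. It was in 7.64% of promoters of genes tested, 8.6% of those of genes that fell and 7.38% of those of genes that rose. This motif was chosen after the changes were known.

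Cholesterol synthesis fell almost as a whole pathway. Of 21 members 20 fell and none rose (median -0.61). The exception was PMVK at 0.20, which did not pass. HMGCS1, which makes HMG-CoA (chr5:43289395-43313512, minus strand), had 85.3, 58.9, 51.9, 62.7 and 54.0 CPM with both drugs, against 149, 110, 89.0, 158 and 113 CPM with zelebrudomide. All values with both drugs were below the lowest with zelebrudomide (log2 fold change -0.98 ± 0.10 SE, edgeR adjusted p = 6.7e-13). LSS, which closes the sterol rings, fell by 0.92 on the log2 scale, the demethylase CYP51A1 by 0.85 and DHCR7, of the last step, by 0.81. SREBF2, which encodes SREBP2, fell by 0.44 and its regulator INSIG1 by 0.73. Within each group clone 1 had the highest or close to the highest HMGCS1 level. In 14 of the 21 the groups did not overlap.

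Chaperones and export factors of the endoplasmic reticulum fell together. Of 20 members 18 fell and none rose (median -0.52), and in 16 the groups did not overlap. XBP1, whose spliced form drives this programme (chr22:28794555-28800597, minus strand), had 96.6, 82.9, 113, 119 and 110 CPM with both drugs, against 170, 155, 166, 199 and 196 CPM with zelebrudomide. No value with both drugs reached the lowest with zelebrudomide (log2 fold change -0.77 ± 0.10 SE, edgeR adjusted p = 1.1e-09). EDEM1, which hands misfolded glycoproteins to degradation, had 21.6, 19.8, 17.3, 21.7 and 20.2 CPM with both drugs, against 42.8, 41.4, 37.99, 57.6 and 40.4 CPM with zelebrudomide. It showed the largest fall of the list (-1.11 ± 0.16 SE, edgeR adjusted p = 1.8e-07). HERPUD1 (-0.72), CRELD2 (-0.64) and MANF (-0.64) followed, and the abundant chaperones HSPA5 (BiP, -0.50), PDIA6 (-0.41), HSP90B1 (-0.27) and CALR (-0.22) fell by less. ATF6 (-0.20) and SEC61B (0.03) did not pass the test.

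The endoplasmic reticulum stress element (CCAAT, 9 bases of any kind and CCACG, on either strand) was rare among promoters and frequent in this list. It was present in 6 of 19 list promoters (31.6%) and in 22 of all 27305 (0.0806%). Of the 14 holders among genes tested, 10 were among the genes that fell and 0 among those that rose. The list holders were XBP1, CRELD2, CANX, HSPA5, HSP90B1 and CALR, and this motif too was chosen after the changes were known. The part CCAAT alone was in 33.0% of all promoters and in 89.5% of those of the list, and in 82.6% of mitosis promoters and 68.0% of replication promoters. The 3 holders with the largest falls are shown to give the element in its setting, with the whole match in capitals and each on the strand of its gene. They lie at chr22:28800570-28800819 (XBP1, minus), chr22:49918384-49918633 (CRELD2, plus, match on the opposite strand) and chr5:179698679-179698928 (CANX, plus).
XBP1: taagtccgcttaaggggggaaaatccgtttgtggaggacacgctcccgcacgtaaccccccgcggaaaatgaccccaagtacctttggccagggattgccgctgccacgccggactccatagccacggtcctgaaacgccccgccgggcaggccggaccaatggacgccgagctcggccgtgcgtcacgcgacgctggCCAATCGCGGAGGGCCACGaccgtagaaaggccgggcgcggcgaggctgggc
CRELD2: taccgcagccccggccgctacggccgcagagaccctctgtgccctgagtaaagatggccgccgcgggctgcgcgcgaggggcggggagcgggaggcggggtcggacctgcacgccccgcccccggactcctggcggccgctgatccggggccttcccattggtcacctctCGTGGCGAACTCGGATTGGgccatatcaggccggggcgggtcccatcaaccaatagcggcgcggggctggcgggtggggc
CANX: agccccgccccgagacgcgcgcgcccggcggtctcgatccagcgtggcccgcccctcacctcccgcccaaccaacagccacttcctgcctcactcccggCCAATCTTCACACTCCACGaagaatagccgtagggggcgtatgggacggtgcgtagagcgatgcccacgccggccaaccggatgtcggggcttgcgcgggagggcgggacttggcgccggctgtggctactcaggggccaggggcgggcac
The match began 52 bases upstream of the start in XBP1, 80 in CRELD2 and 151 in CANX. CANX, calnexin, averaged 158 CPM with both drugs and 231 CPM with zelebrudomide (-0.54 ± 0.07 SE), and CRELD2 averaged 31.1 ± 3.48 CPM with both drugs and 49.4 ± 6.22 CPM with zelebrudomide (SD over the 5 clones).

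**Figure D3:**
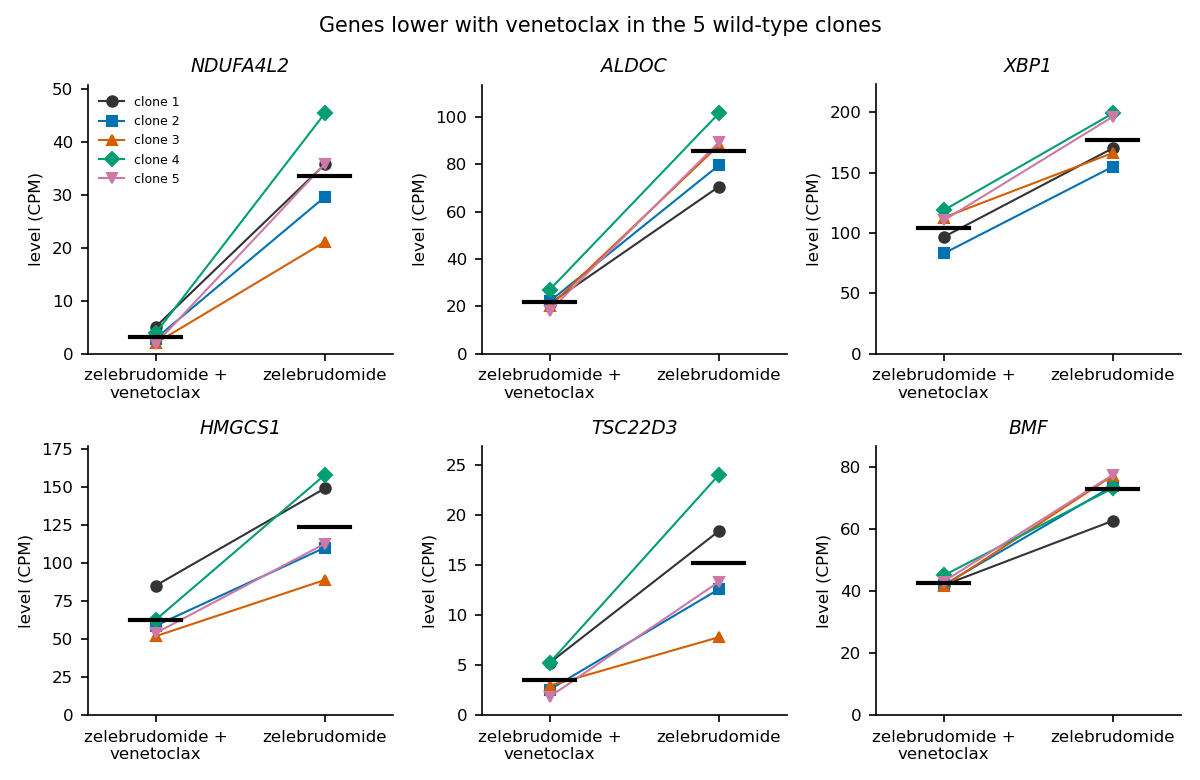
Levels of NDUFA4L2, ALDOC, XBP1, HMGCS1, TSC22D3 and BMF in CPM (TMM-scaled), with zelebrudomide plus venetoclax on the left and zelebrudomide on the right of each panel; each point is 1 library, each line joins the libraries of 1 clone and each bar is a group mean. All lines rise toward the zelebrudomide side and the groups do not overlap, as for NDUFA4L2 at 1.83 to 5.06 against 21.1 to 45.5 CPM.

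The integrated stress response, the arm that ATF4 directs when translation is held back, fell in part. Of 24 members 14 fell and 1 rose, MTHFD2 (0.19), with a median of -0.39, and 9 fell when clones were not paired. ATF4 itself averaged 85.8 CPM with both drugs and 145 CPM with zelebrudomide (-0.76 ± 0.10 SE), DDIT3 (CHOP) fell by 0.91 and TRIB3 by 0.91. ATF5, a related factor, had 627, 814, 816, 826 and 705 CPM with both drugs, against 2423, 2164, 2268, 3194 and 2204 CPM with zelebrudomide. All values with both drugs were far below the lowest with zelebrudomide (log2 fold change -1.69 ± 0.17 SE, edgeR adjusted p = 4.6e-12), with the overlap with other genes given above. CHAC1 (-2.08, mean 0.288 CPM with both drugs and 1.04 CPM with zelebrudomide) and SESN2 (-1.16, 1.95 and 4.27 CPM) were low throughout, and their calls were lost without clone 4 (adjusted p = 0.152) and without clone 1 (adjusted p = 0.097). Genes for amino acid supply such as ASNS (-0.44), PSAT1 (-0.23) and SLC7A11 (-0.13) did not pass the test. Among 20 tRNA synthetases 4 rose, with VARS1 at 0.71, and 2 fell, AARS1 at -0.71 and WARS1 at -0.69.

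Targets of p53 and of FOXO factors, both of which hold back proliferation, tended lower. Of 25 p53 targets 11 fell and none rose (median -0.29), and 7 fell without the pairing by clone. TNFRSF10D, a decoy receptor for TRAIL, had 1.18, 1.13, 0.653, 1.35 and 0.786 CPM with both drugs, against 4.64, 3.48, 3.97, 5.85 and 4.44 CPM with zelebrudomide, with no overlap (log2 fold change -2.08 ± 0.35 SE, edgeR adjusted p = 2.9e-06). TP53INP1 (-1.002), CCNG1 (-0.75), CDKN1A (-0.59) and MDM2 (-0.34), the ubiquitin ligase of p53, fell, while BAX (-0.06), RPS27L (0.01), DDB2 (0.09) and AEN (0.19) did not pass. Of 19 FOXO targets 5 fell and 1, KLF2, rose (0.41). TSC22D3 (GILZ), a target of FOXO factors and of the glucocorticoid receptor, had 5.22, 2.55, 2.94, 5.23 and 1.83 CPM with both drugs, against 18.4, 12.6, 7.79, 24.0 and 13.3 CPM with zelebrudomide. The groups did not overlap, and clone 4 was the highest and clone 3 the lowest under zelebrudomide (log2 fold change -2.06 ± 0.21 SE, edgeR adjusted p = 8.5e-13).

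Within the BCL2 family, 4 of the 8 BH3-only genes fell (2 when clones were not paired), 1 rose and their median was -0.33. BBC3 (PUMA) had 152, 123, 145, 154 and 163 CPM with both drugs, against 222, 219, 223, 255 and 230 CPM with zelebrudomide, with no overlap (log2 fold change -0.64 ± 0.07 SE, edgeR adjusted p = 1.6e-11). BMF had 41.8, 41.9, 41.5, 44.9 and 43.0 CPM with both drugs, against 62.5, 73.7, 77.1, 73.0 and 77.3 CPM with zelebrudomide, again with no overlap (-0.76 ± 0.09 SE, adjusted p = 3e-10). BCL2L11 (BIM) had 450, 324, 296, 340 and 321 CPM with both drugs, against 455, 389, 385, 412 and 399 CPM with zelebrudomide. Clone 1 was high in both conditions, and it made the groups overlap (-0.25 ± 0.06 SE, edgeR adjusted p = 0.0013). HRK had 20.7, 16.7, 16.3, 21.3 and 19.1 CPM with both drugs, against 25.5, 19.7, 20.7, 30.7 and 29.3 CPM with zelebrudomide. Its fall of 0.42 passed with all clones (edgeR adjusted p = 0.017) and not without clone 4 or without clone 5 (adjusted p up to 0.0851). Neither BCL2L11 (edgeR adjusted p = 0.0697) nor HRK (0.422) passed when clones were not paired over all 88 libraries. In an unpaired fit of the 10 libraries compared, HRK passed and BCL2L11 did not. BID, which links death receptors to mitochondria, went the other way, with 71.8, 92.8, 82.9, 73.8 and 84.4 CPM with both drugs and 40.1, 61.8, 68.2, 44.6 and 56.9 CPM with zelebrudomide. All 5 clones were higher and the groups did not overlap (0.60 ± 0.09 SE, edgeR adjusted p = 8.7e-08). PMAIP1 (NOXA, -0.23), BIK (-0.50) and BAD (0.02) did not pass, nor did the effectors BAX and BAK1 (0.11).

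Of the guardians, BCL2A1 was the one that rose. BCL2A1, an NF-kB target that venetoclax does not bind well, had 197, 222, 209, 166 and 180 CPM with both drugs, against 121, 120, 137, 111 and 116 CPM with zelebrudomide. The groups did not overlap (log2 fold change 0.68 ± 0.11 SE, edgeR adjusted p = 1.2e-06). MCL1, whose protein turns over quickly, had 191, 160, 169, 188 and 183 CPM with both drugs, against 230, 207, 223, 243 and 208 CPM with zelebrudomide. All 5 clones were lower and there was no overlap (-0.32 ± 0.07 SE, edgeR adjusted p = 0.00011). BCL2, the target of venetoclax, had 38.8, 33.4, 30.4, 38.3 and 36.4 CPM with both drugs, against 46.9, 38.4, 30.8, 47.3 and 34.0 CPM with zelebrudomide. The groups overlapped widely and the gene did not pass (-0.15 ± 0.10 SE, edgeR adjusted p = 0.27), and BCL2L1 (BCL-XL) was at -0.11. RNA of the degraders' targets moved little, with BTK at 0.04 and IKZF3 at -0.12, neither passing, and IKZF1 lower by 0.25 on the log2 scale (302, 245, 230, 239 and 240 CPM with both drugs, against 318, 300, 302, 279 and 296 CPM with zelebrudomide, overlapping through clone 1). These are transcripts, whereas the degraders act on the proteins. CRBN, the substrate receptor of the cereblon ligase, was at 0.24 and IRF4 at 0.19, and neither passed.

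Among genes of B cell identity, B cell signalling and antigen presentation, calls went in both directions, where 12.4% of all genes tested rose and 10.8% fell. Of 26 B cell identity genes 5 fell and 1, MEF2C, rose (0.46), and 3 fell without clone 2 or without clone 4 (2 fell and none rose when clones were not paired). CD79A, a signalling chain of the B cell receptor, fell by 0.62 on the log2 scale, with means of 650 ± 45.7 CPM with both drugs and 997 ± 57.6 CPM with zelebrudomide (SD over the 5 clones) and no overlap, and the chemokine receptors CXCR5 (-0.60) and CXCR4 (-0.49) fell too. BACH2 was at 0 CPM in all 5 libraries with both drugs and at 0.159 to 0.497 CPM with zelebrudomide, too few reads for a fold change, and its call was lost without clone 1, 2 or 4 and under DESeq2. Among 30 NF-kB targets 9 rose and 2 fell (median 0.21), against 2 and 1 when clones were not paired. The risers included BCL2A1, the precursor of miR-155 MIR155HG (0.69), the cytokines LTA (0.64) and TNF (0.55), and the inhibitor NFKBIA (0.29), and those that fell were CCR7 (-0.58) and CD44 (-0.51), both of lymphocyte homing. When clones were not paired over all 88 libraries, CXCR4 (edgeR adjusted p = 0.0622), CD44 (0.0596) and LTA (0.211) did not pass. Their calls were not among those lost in an unpaired fit of the 10 libraries compared. Of 13 MHC class II genes 7 fell and none rose (median -0.25), and of 16 class I genes 6 fell and 2 rose. When clones were not paired, 1 class II gene fell, and 3 class I genes fell and 1 rose, and without clone 2 the class II count was 4. HLA-E had 126, 109, 115, 142 and 116 CPM with both drugs, against 174, 149, 159, 193 and 169 CPM with zelebrudomide, with no overlap. HLA genes share sequence, so the split of reads among them is uncertain, while TAP2, a peptide transporter, rose (0.63). Of 34 interferon-stimulated genes 4 fell, a share near the 10.8% of all genes tested that fell, and none rose (median -0.15). When clones were not paired 2 fell, and in a fit of the 10 libraries alone 11 of 30 did. The 4 included IRF7 (-0.74) and STAT2 (-0.50). Of 20 plasma cell genes 9 fell and 2 rose, JCHAIN and the receptor CD27 (0.51), against 6 and 0 when clones were not paired. Those that fell included genes of the secretory pathway such as DERL3 (-0.78), XBP1 and FKBP11 (-0.45), while PRDM1 (-0.06) and MZB1 (-0.04) did not pass.

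JCHAIN showed the largest rise among the plasma cell genes. It encodes the chain that joins secreted IgM and IgA (chr4:70655541-70681817, minus strand), and had 64.7, 49.8, 67.9, 69.1 and 81.5 CPM in clones 1 to 5 with both drugs, against 33.7, 19.2, 34.6, 27.8 and 37.5 CPM with zelebrudomide. The groups did not overlap (log2 fold change 1.13 ± 0.10 SE, edgeR adjusted p = 3.7e-15). Without the pairing by clone it did not pass over all 88 libraries (edgeR adjusted p = 0.3), and it passed in an unpaired fit of the 10 libraries compared. With venetoclax on DMSO the change was smaller, at 32.5, 22.5, 28.6, 29.6 and 35.7 CPM with venetoclax against 27.5, 19.9, 25.2, 20.2 and 34.2 CPM with DMSO, where the groups overlapped. The difference between the 2 changes was 0.89 ± 0.14 SE (edgeR adjusted p = 1.7e-05). In A428D clones the lowest, median and highest values were 15.3, 27.8 and 152 CPM with both drugs and 11.1, 17.7 and 119 CPM with zelebrudomide. The wild-type change exceeded the A428D change by 0.69 ± 0.13 SE (edgeR adjusted p = 0.0075). That call was lost without clone 5 and without the pairing by clone, where 0 genes passed this test between genotypes. With bexobrutideg in place of zelebrudomide, JCHAIN had 65.2, 60.3, 84.7, 57.1 and 89.0 CPM with venetoclax and 38.8, 30.8, 34.0, 29.3 and 43.4 CPM without, a change of 0.99 ± 0.09 SE.

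The changes on zelebrudomide were compared with those that venetoclax made on DMSO in the same clones, in 1 fit and with no library in common. Venetoclax on DMSO changed 6727 genes (45.0%), 3053 higher (20.4%) and 3674 lower (24.6%). Those libraries were deeper, with means of 7.08 M reads with venetoclax and 7.9 M with DMSO. The means were 4.52 M with both drugs and 6.5 M with zelebrudomide, so counts of genes called on the 2 backgrounds are not at equal depth. The list medians lay on the same side of 0 as on zelebrudomide for replication (1.04 on zelebrudomide, 1.35 on DMSO), MYC targets (0.47 and 0.71), cholesterol synthesis (-0.61 and -0.77), glycolysis and hypoxia (-0.59 and -0.55) and endoplasmic reticulum chaperones (-0.52 and -0.35). The difference between the 2 changes passed the test for 368 genes (2.46%), with 290 higher (1.94%) and 78 lower (0.521%) on zelebrudomide. Of the 290, 285 had a fitted change below 0 on DMSO and 5 above it, and of the 78, 77 had one above 0 and 1 below it. These genes were selected by a difference that contains the change on DMSO, so this split is partly set in advance. The pairing by clone carries the count of 368 genes, which was 4 without it. That count ran from 85 to 546 when 1 clone was left out, with 183 without clone 1, 156 without clone 2, 546 without clone 3, 103 without clone 4 and 85 without clone 5.

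Genes whose response to venetoclax was smaller on zelebrudomide included BH3-only and B cell genes. HRK had 11.4, 7.49, 7.17, 14.1 and 11.6 CPM with venetoclax, against 30.3, 23.1, 22.2, 36.3 and 33.6 CPM with DMSO. Its log2 change was -0.42 on zelebrudomide and -1.496 on DMSO, a difference of 1.07 ± 0.19 SE (edgeR adjusted p = 0.00026). BBC3 had 65.4, 72.2, 63.3, 79.2 and 83.5 CPM with venetoclax, against 152, 160, 162, 194 and 170 CPM with DMSO, and its log2 change was -0.64 on zelebrudomide and -1.21 on DMSO (difference 0.57 ± 0.10 SE, edgeR adjusted p = 0.00016). Of the 8 BH3-only genes 3 had a higher difference and 1, BID, a lower one (-0.40 ± 0.12 SE, adjusted p = 0.049), and BMF was short of the threshold (0.42 ± 0.13 SE, adjusted p = 0.065). Among 26 B cell identity genes 5 fell on zelebrudomide and 18 on DMSO, against 10.8% and 24.6% of all genes tested. The difference was higher for 6 and lower for 1, against 1.94% and 0.521% of all genes tested. That 1 was CXCR5, at -0.60 on zelebrudomide and 0.11 on DMSO (difference -0.71 ± 0.15 SE, adjusted p = 0.0028). Of 34 interferon-stimulated genes 4 fell on zelebrudomide and 18 on DMSO, where 10.8% and 24.6% of all genes tested fell. The difference passed, higher, for 4, against 1.94% of all genes tested.

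For other genes the change was lower on zelebrudomide than on DMSO. EBI3, a subunit of the cytokines IL-27 and IL-35, had 5.22, 6.23, 8.49, 7.16 and 6.03 CPM with both drugs, against 6.47, 6.46, 6.99, 13.0 and 9.60 CPM with zelebrudomide. With venetoclax it had 19.3, 30.9, 31.7, 22.5 and 29.4 CPM, against 11.7, 13.8, 15.7, 19.1 and 15.2 CPM with DMSO. The venetoclax libraries lay wholly above the DMSO libraries, whereas the groups on zelebrudomide overlapped, and the difference was -1.21 ± 0.22 SE (edgeR adjusted p = 0.00032). CHEK1, the checkpoint kinase of S phase, had 2.87, 7.36, 7.51, 5.23 and 5.76 CPM with both drugs, against 3.98, 6.63, 3.18, 4.42 and 3.56 CPM with zelebrudomide. With venetoclax it had 9.80, 12.4, 16.2, 11.4 and 12.8 CPM, against 4.58, 4.45, 6.62, 5.67 and 3.83 CPM with DMSO (difference -0.97 ± 0.27 SE, edgeR adjusted p = 0.030), a call that was lost without clone 1, 2, 4 or 5. BATF, a partner of IRF4, rose by 0.39 on the log2 scale on zelebrudomide and by 1.06 on DMSO (difference -0.67 ± 0.14 SE, edgeR adjusted p = 0.0015). Its rise on zelebrudomide did not pass without the pairing by clone over all 88 libraries (edgeR adjusted p = 0.0573). It passed in an unpaired fit of the 10 libraries compared. None of the differences named here for HRK, BBC3, EBI3, CHEK1, BATF, CXCR5 and JCHAIN passed without the pairing by clone, with EBI3 the nearest at an edgeR adjusted p of 0.053.

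**Figure D4:**
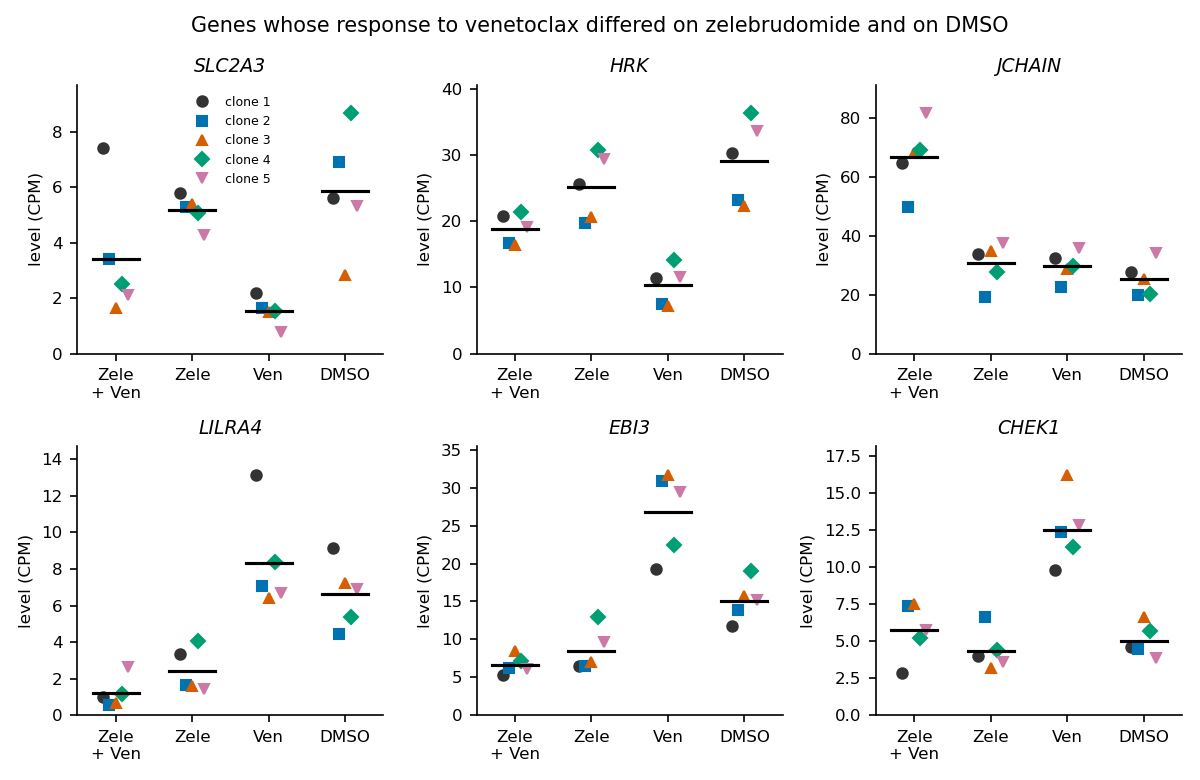
Levels of SLC2A3, HRK, JCHAIN, LILRA4, EBI3 and CHEK1 in CPM (TMM-scaled) in the 5 wild-type clones with zelebrudomide plus venetoclax, zelebrudomide, venetoclax and DMSO, from left to right; each point is 1 library, shaped by clone, and each bar is the mean of its group. HRK lies at 16.3 to 21.3 against 19.7 to 30.7 CPM on zelebrudomide and at 7.17 to 14.1 against 22.2 to 36.3 CPM on DMSO.

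In A428D clones venetoclax on zelebrudomide changed 5057 genes (33.8%). Few genes passed the test of a difference from wild-type clones, which does not show that the genotypes respond alike. The medians in A428D clones were 0.78 for replication, -0.58 for cholesterol synthesis, -0.70 for glycolysis and hypoxia and -0.22 for endoplasmic reticulum chaperones. The difference between genotypes passed for 11 genes (0.0735%), with 10 higher (0.0668%) and 1 lower (0.00668%) in wild-type clones, and 1138 had an unadjusted p under 0.05. DESeq2 called 58 but gave no adjusted p for 8412 of the 14962 genes, so its count is not over the same genes. The fit without pairing by clone called 0. Leaving out 1 wild-type clone gave 0 to 63, with 3 without clone 2, 63 without clone 3, 2 without clone 4 and 0 without clone 5. HILPDA, a lipid droplet protein induced by low oxygen, had 37.4, 62.5, 50.6, 51.7 and 50.04 CPM with both drugs in wild-type clones, against 39.97, 43.1, 45.0, 52.2 and 34.0 CPM with zelebrudomide. In A428D clones its lowest, median and highest levels were 16.6, 48.6 and 93.0 CPM with both drugs, against 42.3, 111 and 159 CPM with zelebrudomide. It did not pass in wild-type clones (0.21) and fell by 1.03 in A428D clones, a difference of 1.24 ± 0.21 SE (edgeR adjusted p = 0.0012). DDIT4 (REDD1), which restrains mTORC1, fell by 0.46 in wild-type clones and by 1.29 in A428D clones (difference 0.83 ± 0.15 SE, edgeR adjusted p = 0.0029), and for both genes the call was lost without clone 5. SSPN, sarcospan, had 29.7, 24.6, 31.7, 25.6 and 29.1 CPM with both drugs in wild-type clones, against 16.9, 16.1, 15.6, 13.2 and 17.8 CPM with zelebrudomide. It rose by 0.82 there without overlap and was at 0.06 in A428D clones (difference 0.76 ± 0.16 SE, edgeR adjusted p = 0.027), a call that was lost without clone 2, 4 or 5.

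With bexobrutideg in place of zelebrudomide, venetoclax changed 4424 genes (29.6%), 2248 higher and 2176 lower. No gene's change differed between the 2 degraders by edgeR (0 of 14962, with 1023 at an unadjusted p under 0.05) or by DESeq2 (0, with 1107 at an unadjusted p under 0.05). The count stayed 0 without clone 3, whose bexobrutideg plus venetoclax library held 1.48 M reads, and was 28 without the filter on low counts. The list medians with bexobrutideg were 1.224 for replication, 0.41 for MYC targets, -0.61 for cholesterol synthesis, -0.71 for glycolysis and hypoxia and -0.44 for endoplasmic reticulum chaperones. The mitosis median was 0.17 with zelebrudomide and 0.40 with bexobrutideg, a difference that was not tested as a list, and no mitosis gene passed the test of the difference. A test that calls no gene does not show that venetoclax acts alike on both degraders.

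**Figure D5:**
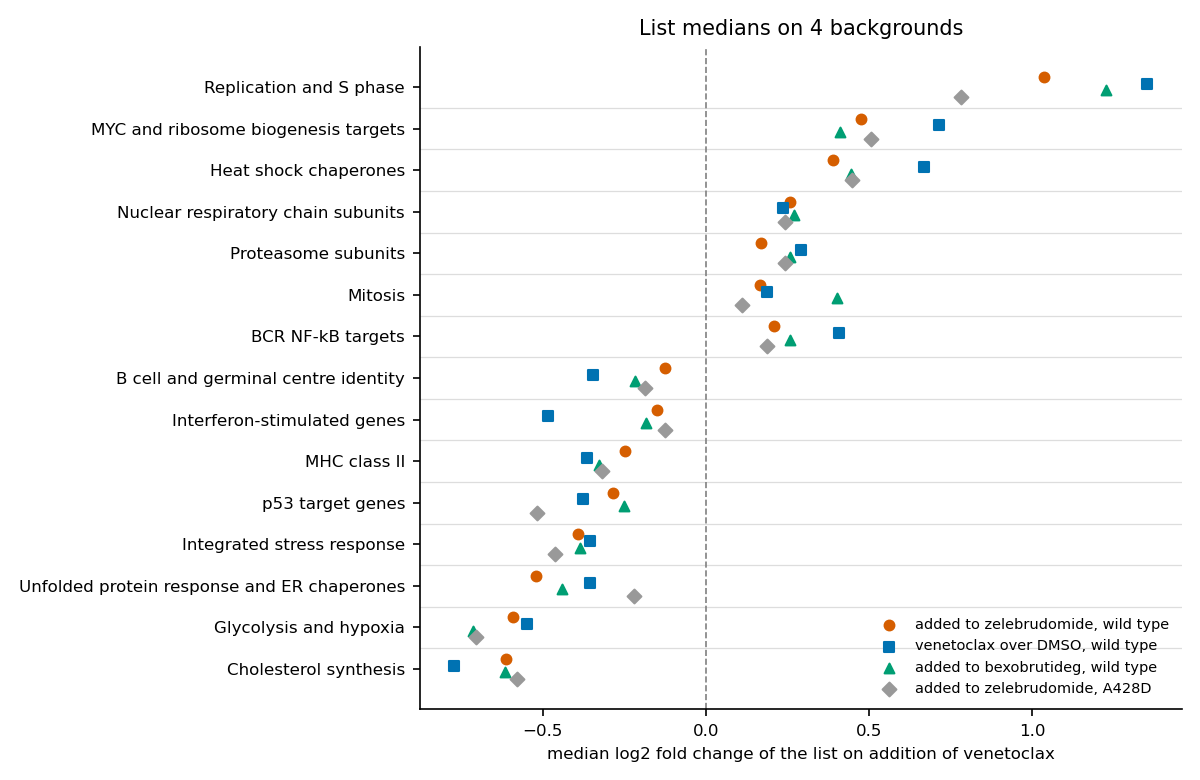
Median log2 fold change of each gene list when venetoclax was added on 4 backgrounds: zelebrudomide in wild-type clones, DMSO in wild-type clones, zelebrudomide in A428D clones and bexobrutideg in wild-type clones. The replication medians are 1.04, 1.35, 0.78 and 1.224, and those of cholesterol synthesis are -0.61, -0.77, -0.58 and -0.61.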

How the data were processed

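Poly(A) RNA from TMD8 clones was made into 3' end libraries by a company, per the labels' protocols. The authors deposited estimated counts per gene, of which 8.76% were not whole numbers. Per the submitters' processing notes, which give no roles, the tools included STAR 2.7.11, featureCounts, Subread 2.1.1 and edgeR, and the build was GRCh38. The strand setting and the source of the fractional counts are not given in the sources used here, and a fractional count can come from reads shared among genes.

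Counts were rounded to whole numbers (a change of -0.0068% of the total), and 92 spike-in entries were left out. The 78894 entries were filtered with filterByExpr (minimum count 10, minimum total 15), which left 14962 genes. edgeR 4.0.16 (R 4.3.3, limma 3.58.1) fitted group and clone over 88 libraries of 16 groups and 11 clones, with TMM scaling, a robust quasi-likelihood test, and Benjamini-Hochberg adjustment at 0.05 over all genes tested. Sharing the spread over all groups assumes that they vary alike. Differences between changes were contrasts of the same fit. Alternatives were a fit without clone, DESeq2 1.42.0, other scaling, no filter, fewer libraries, thinned libraries (seed 11) and leaving out each clone. Gene positions were read from GENCODE release 29, which matched 57342 identifiers, and 36134 identifiers had no symbol. Tables were handled with Python 3.11.15, pandas 2.3.3 and numpy 2.4.6.

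Libraries pair by clone because the labels give the same clones under every condition. As a check, deviations from the group mean over 500 genes correlated at -0.076 to 0.38 within a clone (median 0.14) and at a median of -0.01 between clones. Of the 5 libraries with both drugs, 3 correlated best with their own clone. Clones 1 and 3 did not, at -0.066 and -0.076 with themselves. Clone 1 with both drugs stood at 0.14 with clone 4 under zelebrudomide, and clone 3 with both drugs at 0.35 with clone 1. Replicates differed beyond sampling noise (lowest chi-square per degree of freedom 1.79 with both drugs and 1.95 with zelebrudomide). Each clone gave 1 library per condition, and the fit took out differences in level between clones. Its p-values therefore measure the spread left after group and clone, pooled over 88 libraries of 1 line. The fit was run on simulated counts drawn without differences between clones, so the run could not test the pairing by clone. It recovered 75% of 1.5-fold and 98% of 2-fold changes, and 4.42% of its calls were false.

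The genes named were the 12 largest rises and falls (at least 5 CPM, same direction in all clones), 8 axis genes, up to 4 called members per list, all BCL2 family members measured, and the 6 largest differences each way. Members named beyond it were chosen after their values were seen. The groups, lists and rule were chosen with earlier results of these data known. Promoters are from RefSeq (GRCh38.p14), with 9993 of the genes tested in that table, and motifs were read on both strands.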

Additional observations from a re-analysis of the deposited data

Results flagged for a closer look

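Of 356 groups of 5 values checked, 22 held 1 value whose gap to the nearest of the others exceeded 0.71 of the range of the group, which chance gives in about 1 group in 20. In clone 1 with zelebrudomide plus venetoclax, BCL2L11 (450 CPM), IKZF1 (302 CPM), IKZF3 (181 CPM) and ZMYM2 (39.9 CPM) stood above the other clones, and ATP5PO (379 CPM), RPL27 (4744 CPM) and VARS1 (54.3 CPM) stood below them. The other values with both drugs were CXCR5 in clone 3 (14 CPM), DERL3 in clone 4 (28.3 CPM), HMOX1 in clone 4 (106 CPM) and LILRA4 in clone 5 (2.62 CPM), all highest. With zelebrudomide, clone 4 was far above the others for ATF5 (3194 CPM), EDEM1 (57.6 CPM), NDRG1 (17.4 CPM) and WARS1 (49.0 CPM), and far below them for TAP2 (8.06 CPM). Clone 5 was highest for MT1X (174 CPM), and the lowest values stood apart for CD47 in clone 1 (103 CPM), SPC25 in clone 2 (4.31 CPM), CRBN in clone 3 (13.5 CPM) and STAT2 in clone 3 (45.6 CPM). The mitochondrial share of clone 2 under zelebrudomide (10.5%) was above those of the other 4 clones.

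Some genes responded differently to venetoclax on zelebrudomide and on DMSO, by the difference of the 2 log2 changes in edgeR. Among genes of at least 5 CPM, the largest positive differences were those of NEB (1.67), SLC2A3 (1.42), TMEM100 (1.35), MIR22HG (1.31), TAS1R3 (1.30) and the pseudogene OLA1P2 (1.28). NEB had 5.06, 2.26, 0.98, 1.74 and 2.36 CPM with both drugs against 6.47, 8.45, 4.45, 8.06 and 4.98 CPM with zelebrudomide, and 1.61, 0.545, 0.503, 0.516 and 0.513 CPM with venetoclax against 8.28, 7.41, 4.14, 5.67 and 4.28 CPM with DMSO. The largest negative ones were those of LILRA4 (-1.42), EBI3 (-1.21), GALNT12 (-1.0), DDN (-0.98), CHEK1 (-0.97) and SPR (-0.97). LILRA4 had 1.01, 0.566, 0.653, 1.16 and 2.62 CPM with both drugs against 3.32, 1.66, 1.59, 4.03 and 1.42 CPM with zelebrudomide, and 13.2, 7.08, 6.42, 8.39 and 6.67 CPM with venetoclax against 9.17, 4.45, 7.21, 5.35 and 6.93 CPM with DMSO. Leaving out at least 1 clone ended each of these calls except that of EBI3, namely NEB without clone 1 or 5, SLC2A3 and OLA1P2 without clone 1, 2, 4 or 5, LILRA4 and SPR without clone 1, 2 or 4, DDN and GALNT12 without clone 2, 4 or 5, CHEK1 without clone 1, 2, 4 or 5, MIR22HG without clone 4 or 5, TAS1R3 without clone 4 and TMEM100 without clone 5. None of the 12 passed without the pairing by clone.

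The change differed between wild-type and A428D clones for HILPDA (1.24), DDIT4 (0.83), FADS3 (0.83), SSPN (0.76), BHLHE40 (0.72), WFDC21P (0.69) and ERCC6L2 (-0.62), tested in the same way. HILPDA and DDIT4 were not called without clone 5 and SSPN not without clone 2, 4 or 5. FADS3 was called without clone 1, 2 or 3 and not without clone 4 or 5, BHLHE40 not without clone 1, 2, 4 or 5, and WFDC21P and ERCC6L2 not without clone 2, 4 or 5.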

How the results depend on the processing

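The count of 3473 genes stayed within 1.5 times its value under DESeq2 (3533, of which 3357 shared), DESeq2 size factors in edgeR (3478), no filter (2800), the 40 wild-type libraries (2948), the 10 libraries compared (3917), thinned pairs (3550) and, in a fit chosen after seeing the data, the 10 libraries without pairing (2788). It ran from 2368 to 3710 when a clone was left out. Without the replicate block over all 88 libraries it was 1867. The difference from venetoclax on DMSO had 368 genes, 4 without the block, 338 with DESeq2 size factors, 253 with no filter and 495 with DESeq2 (339 higher and 156 lower, against 290 and 78), and 85 to 546 with a clone left out. The difference from A428D clones had 11 genes, 0 without the block, 9 with DESeq2 size factors, 58 with no filter, 58 with DESeq2, and 0 to 63 with a clone left out. DESeq2 gave no adjusted p for 3191 genes in the difference on DMSO and for 8412 in that from A428D clones. The difference from bexobrutideg had 0 genes, 28 with no filter and 0 with each clone left out in turn. The log2 ratio of depth ran from -0.71 to -0.44. The cause of these changes was not tested.

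Of the named results, 58 lost their call without pairing by clone, 1 under DESeq2, 4 with other size factors, 9 with no filter, and 18, 23, 1, 32 and 25 without clones 1 to 5. None of them changed direction under these settings. In an unpaired fit of the 10 libraries compared, 9 lost their call. Depth limits low genes such as CA9 most, since the libraries with both drugs held as few as 3.15 M reads. Protein levels and cell numbers are not part of the files used here.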

Other observations

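When venetoclax was added to zelebrudomide, of 17 genes of caspases and the apoptosome 4 rose, CYCS most (log2 fold change 0.85), and 2 fell, the initiator caspase CASP8 (-0.35) and the caspase inhibitor XIAP (-0.31). Over all genes tested 12.4% rose and 10.8% fell. The call of CASP8 was lost without clone 4 (adjusted p = 0.065), and that of XIAP without clone 1, 2 or 4. Of 6 metallothioneins 3 fell and none rose (median -0.70), against 1 when clones were not paired and 2 without clone 1 or without clone 4, and their near-identical copies can share reads. MT1X, the most abundant of those that fell, had 96.6, 82.9, 67.3, 93.9 and 91.2 CPM with both drugs, against 133, 124, 130, 120 and 174 CPM with zelebrudomide, with no overlap. On DMSO its change was 0.02, and the difference was -0.66 ± 0.14 SE (edgeR adjusted p = 0.0024).

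Of 28 autophagy and lysosome genes 5 fell and 3 rose (median -0.09), against 10.8% and 12.4% of all genes tested. The other counts on zelebrudomide given here stand against the same shares. WIPI1, which binds the forming autophagosome, averaged 6.21 ± 1.38 CPM with both drugs and 12.2 ± 2.15 CPM with zelebrudomide (SD over the 5 clones, log2 fold change -0.96), and the cargo receptor SQSTM1 fell by 0.43. Among 20 immediate early genes and ERK targets 4 fell, with JUND at -0.57, and 2 rose, EGR1 (1.20, at 3.68 against 1.63 CPM) and the phosphatase DUSP2 (0.59). Of 24 components of B cell receptor and Toll-like receptor signalling 4 fell, CD79A, TLR7 (-0.46), BLNK (-0.26) and PLCG2 (-0.23), and 3 rose, with the phosphatase PTPN6 at 0.44. On DMSO 13 of the 24 fell and 2 rose, against 24.6% and 20.4% of all genes tested. Of 13 genes of the oxidative stress response TXN rose (0.39) and FTH1 (-0.43) and HMOX1 (-0.30) fell, the last not without clone 2 (adjusted p = 0.073). Of 17 genes of the cereblon ligase and its substrates 3 rose, with GSPT1 at 0.36, and 3 fell, with CUL4B at -0.54. Of 13 STAT3 and cytokine targets 2 rose and PIM2 fell (-0.55). Of 15 checkpoint and costimulatory ligands 2 rose and 1 fell. Of 14 homing receptors 7 fell and 1, the integrin chain ITGA4, rose (0.56), with a median of -0.31. When clones were not paired 2 fell and none rose, and without clone 2 the count that fell was 4. With clones unpaired, 3 autophagy genes fell and 2 rose, and the same counts were 2 and 1 for ERK targets, 3 and 1 for B cell and Toll-like receptor signalling, and 0 and 1 for caspases. When clones were not paired over all 88 libraries, CASP8, XIAP, EGR1, TXN, HMOX1 and ITGA4 did not pass (edgeR adjusted p = 0.0514 to 0.359). Their calls were not among those lost in an unpaired fit of the 10 libraries compared. The other motifs searched were present in 3 of 20 promoters of the integrated stress response (TGATGNAAN, 15%, against 3.18% of all promoters), in 1 of 24 of the NF-kB list (GGGAC followed by TTTCC, 4.17% against 0.183%) and in 16 of 26 interferon-stimulated genes (GAAA, 2 bases of any kind and GAAA, 61.5% against 3.07%). CACGTG was in 3 of 20 promoters of the MYC list (15%), in 6.49% of all promoters and in 9.17% of those of genes tested. It was in 10.5% of promoters of genes that rose and 10.9% of those of genes that fell. Other lists held it more often, with mitosis at 21.7%, glycolysis and hypoxia at 20% and endoplasmic reticulum chaperones at 15.8%.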
